A study of Mus musculus with 8 samples.

Results

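Distal WFS1 peaks of C2C12 myoblasts that carry the letters of a RUNX site, without the AP-1 site or the myogenic E-box, numbered 2715 of 22292 combined peaks. They were selected on position and sequence. A peak had to be autosomal, to be centred between 1 and 100 kb from the nearest 5′ end of a protein-coding gene, and to hold TGTGGT or TGCGGT (the RUNX core, on either strand) in its central 200 bp, with no TGACTCA or TGAGTCA (AP-1) and no CAGCTG (the E-box) in the same 200 bp. Of the combined peaks 22020 were autosomal and 14472 of these were distal by this rule. The presence of the core, the absence of the other motifs and the distance limits are therefore properties of the rule and not results.

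WFS1 is an integral membrane glycoprotein of the endoplasmic reticulum and was immunoprecipitated from wildtype, C2C12 cells kept proliferating. C2C12 is a line of mouse myoblasts, the muscle precursors that fuse into myotubes on differentiation. Chromatin was crosslinked with DSG and formaldehyde and sonicated for 30 cycles, and a part of the same immunoprecipitate was sonicated for 6 further cycles, so that the 30-cycle list (18283 peaks) and the 36-cycle list (12674 peaks) share 1 immunoprecipitation and neither is a replicate of the other. Not analysed here were the inputs after 30 and 36 cycles, nor the libraries from knockout C2C12 cells that express WFS1-FlagTag. The lists give positions on GRCm38 without height or read count, so the depth is unknown and the cell type could not be checked against marker genes. With 1 library per condition no test across samples was possible. The 95% intervals below cover counting error only, over peaks, genes, regions or single cores. Intervals over cores count several cores of 1 peak as separate and may be too narrow.

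RUNX proteins (RUNX1, RUNX2 and RUNX3) bind DNA through a shared Runt domain, with CBFB as a common partner that strengthens binding. Their site reads TGTGGT or TGCGGT, most often followed by a thymine, and they are known for blood formation (RUNX1), bone formation (RUNX2) and neuronal and immune lineages (RUNX3). AP-1 dimers and the myogenic factor MyoD1, which binds CAGCTG, recognise the sequences that the rule left out.

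The genome sequence of members near genes of the RUNX family, of a known RUNX-regulated gene (Lgals3, galectin-3) and of one of the widest members (Wwp2, an E3 ubiquitin ligase) shows what the core looks like in place. Each line gives the central 200 bp on the plus strand of GRCm38, with each core in capitals; a core on the minus strand reads ACCACA or ACCGCA.

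75.3 kb upstream of Runx3, found in both lists (chr4:135045232-135045431): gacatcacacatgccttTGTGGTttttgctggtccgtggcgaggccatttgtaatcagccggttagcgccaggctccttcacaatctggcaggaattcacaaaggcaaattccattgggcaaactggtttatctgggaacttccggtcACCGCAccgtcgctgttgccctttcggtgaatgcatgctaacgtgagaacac
24.8 kb upstream of Runx3, found in both lists (chr4:135095722-135095921): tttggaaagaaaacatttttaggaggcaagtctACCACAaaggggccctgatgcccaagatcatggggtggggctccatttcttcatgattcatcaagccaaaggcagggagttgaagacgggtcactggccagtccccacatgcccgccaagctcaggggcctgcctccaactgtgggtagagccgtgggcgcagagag
6.70 kb downstream of the Lgals3 start, found in both lists (chr14:47374351-47374550): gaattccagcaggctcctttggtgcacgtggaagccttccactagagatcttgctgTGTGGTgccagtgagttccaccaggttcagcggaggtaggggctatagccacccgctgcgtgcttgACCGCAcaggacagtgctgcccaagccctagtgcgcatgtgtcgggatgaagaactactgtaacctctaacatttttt
66.8 kb downstream of the Wwp2 start, found in both lists (chr8:107503071-107503270): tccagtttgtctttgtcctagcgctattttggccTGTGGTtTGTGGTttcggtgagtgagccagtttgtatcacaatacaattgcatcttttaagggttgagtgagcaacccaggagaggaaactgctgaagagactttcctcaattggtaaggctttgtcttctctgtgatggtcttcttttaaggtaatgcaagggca
2.09 kb downstream of the Runx1 start, found in both lists (chr16:92823957-92824156): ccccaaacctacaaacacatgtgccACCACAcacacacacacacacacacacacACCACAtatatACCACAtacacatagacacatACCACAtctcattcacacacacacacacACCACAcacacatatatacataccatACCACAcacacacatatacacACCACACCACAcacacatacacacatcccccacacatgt

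The Runx3, Lgals3 and Wwp2 windows held 1 or 2 cores in non-repetitive sequence, and those of Wwp2 were head to tail. The Runx1 window held 8 cores inside a run of alternating cytosine and adenine, in which 187 of 200 bases are masked as repeat, so that the same rule took up sequences of very different kinds.

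Read along the strand of the core, the surroundings of members can be compared directly. For 10 genes described further on, the lines below give cores outside repeats, in capitals, with 10 bases on either side. They come from the widest member near each gene whose central 200 bp overlap no exon and hold such a core. The member near Il34 holds a further core inside a repeat, which is not shown.

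24.8 kb upstream of Runx3, both lists (chr4:135095745-135095770, minus strand): agggccccttTGTGGTagacttgcct
42.4 kb downstream of the Plxna2 start, 30-cycle list only (chr1:194660723-194660748, minus strand): accgcagtatTGTGGTtggcttgggt
the same peak near Plxna2, second core (chr1:194660733-194660758, plus strand): accacaatacTGCGGTgccgcacagc
6.70 kb downstream of the Lgals3 start, both lists (chr14:47374397-47374422, plus strand): gatcttgctgTGTGGTgccagtgagt
the same peak near Lgals3, second core (chr14:47374463-47374488, minus strand): cactgtcctgTGCGGTcaagcacgca
35.2 kb upstream of Ccn1, both lists (chr3:145685176-145685201, plus strand): taagaggagcTGTGGTccttccaccc
99.5 kb downstream of the Tgif1 start, both lists (chr17:70753982-70754007, plus strand): agaaaggctgTGTGGTtcacacaggc
84.4 kb upstream of Klf6, 30-cycle list only (chr13:5777085-5777110, minus strand): tgaaatgagtTGTGGTttctaatagc
29.1 kb downstream of the Ralgps1 start, both lists (chr2:33342425-33342450, minus strand): tgctgtggctTGTGGTagcatctcgt
2.52 kb upstream of Col4a1, both lists (chr8:11315435-11315460, minus strand): accaatcgcaTGCGGTtgcagacaca
80.1 kb upstream of Mtap, both lists (chr4:89057024-89057049, plus strand): tgcgtagcatTGTGGTcgatgctgct
11.9 kb downstream of the Il34 start, both lists (chr8:110794021-110794046, plus strand): gatctaatcgTGTGGTttcatgcgcg

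These cores are TGTGGT or TGCGGT in differing surroundings, and the base after the core takes all 4 values among them. The surroundings are compared over all members further on.

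The first question was whether the core was more frequent at the peaks than beside them. Among the 9501 distal peaks without AP-1 and E-box, 2715 held the core, which is 28.6% (27.7 to 29.5, Wilson). The flanks were regions of 200 bp centred 2 kb to either side of any of the 14472 distal peaks. Those that held neither AP-1 nor E-box themselves had the core in 4032 of 23759 cases or 17.0% (16.5 to 17.5). The ratio was 1.68 (1.61 to 1.76). A core of 6 letters is thus common away from the peaks too. Over 5828484 tiles of 200 bp that lie at the same distances from genes the share was 15.8%, and in the 200 bp before the start in 32851 RefSeq promoters of GRCm38.p6 it was 15.0%.

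The ratio was above 1 on 19 of 19 autosomes, between 1.40 and 1.94. Each group of lists was set against the same 23759 flanks and not against its own. The ratio was 1.87 (1.77 to 1.98) for peaks found in both lists, 1.65 (1.56 to 1.74) for those found after 30 cycles only and 1.43 (1.31 to 1.55) for those found after 36 cycles only. The interval of the last group lay below the others. Distal peaks were also divided into 3 classes of width and set against these same flanks. The narrow ones had a ratio of 1.58 (1.48 to 1.68), the middle ones 1.76 (1.66 to 1.88) and the wide ones 1.72 (1.61 to 1.82). Distal peaks that the rule left out were set against flanks that themselves held the same motif, and the core was more frequent at these peaks too. The ratio was 1.71 (1.48 to 1.98) among peaks with AP-1 (948 flanks). It was 1.88 (1.69 to 2.09) among peaks with the E-box but not AP-1 (2437 flanks). Both intervals overlap that of the peaks with neither.

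Against the flanks, the rarer form of the core was the more enriched. The flanks were not matched to the peaks in GC or CG content, and the 2 forms were not compared on a matched background. TGTGGT was found in 25.5% of the 9501 peaks and 15.6% of flanks, a ratio of 1.63 (1.56 to 1.71). TGCGGT, which contains the CG dinucleotide, was found in 4.35% of peaks and 1.65% of flanks, a ratio of 2.63 (2.30 to 3.02). The ratio also varied with the base that followed. It was 2.03 (1.82 to 2.26) for TGTGGTC, 2.00 (1.85 to 2.17) for TGTGGTT, 1.55 (1.39 to 1.74) for TGTGGTA and 1.50 (1.38 to 1.64) for TGTGGTG. The order began with thymine for the other form, with 3.78 (2.94 to 4.86) for TGCGGTT, 3.15 (2.34 to 4.24) for TGCGGTC, 1.92 (1.51 to 2.44) for TGCGGTG and 1.90 (1.32 to 2.74) for TGCGGTA. A following pyrimidine thus had the higher ratio in both forms, and the intervals of thymine and cytosine overlap. Among the forms with 2 following bases found in over 100 peaks, TGTGGTTA had a ratio of 3.47 (2.87 to 4.19), TGTGGTTT 3.28 (2.86 to 3.77) and TGTGGTCA 3.13 (2.64 to 3.71). TGTGGTTG, found in 249 peaks, had a ratio of 1.15 (0.992 to 1.33), so that over all windows the forms followed by thymine differed among themselves. In windows without repeats its ratio was 2.72, beside 4.04 for TGTGGTTA, 3.49 for TGTGGTTT and 1.63 for TGTGGTTC. There the intervals of these forms overlapped, so the difference among them was not resolved outside repeats.

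Cores were concentrated at the peak centre. In bins of 50 bp, the 9501 distal peaks without AP-1 and E-box held 10.7 cores per 100 peaks at the centre and 4.94 per 100 peaks at 500 bp or more from it, or 2.17 times as many. The value at the centre was 11.7 for peaks in both lists, 11.2 for 30 cycles only and 7.87 for 36 cycles only, over distant values of 5.07, 4.84 and 4.91. Within the central 200 bp of the members the placement was nearly even: 2063 of 3820 cores, or 54.0% (52.4 to 55.6), lay within 50 bp of the centre, where even placement gives 51.8%. The centre of a combined peak is the midpoint of its limits and not a summit, since the lists give none.

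**Figure D1:**
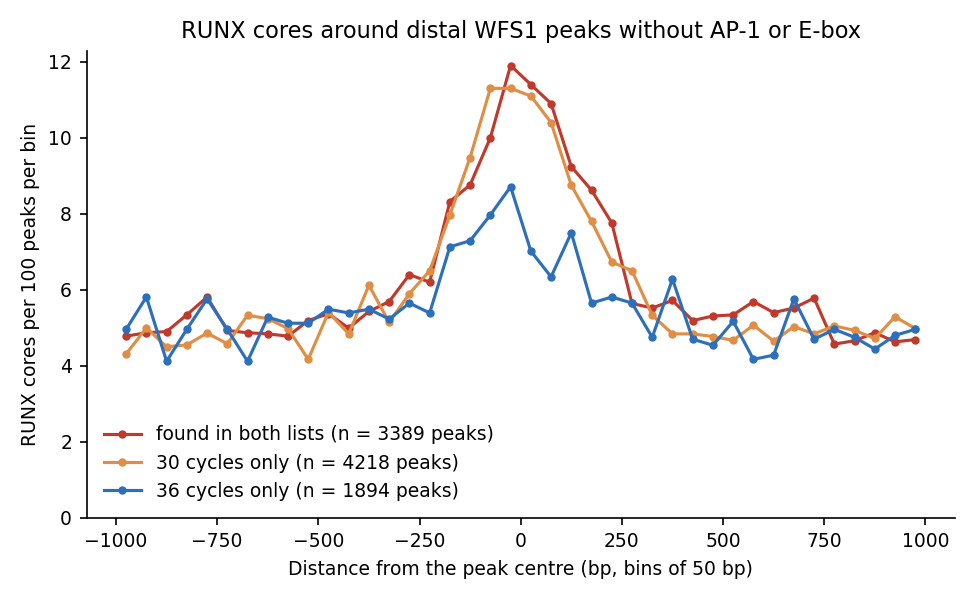
RUNX cores per 100 peaks in bins of 50 bp (y axis) against distance from the peak centre in bp (x axis) for distal peaks without AP-1 or E-box, with 1 line for each group of lists. All 3 lines rise toward the centre, where peaks found only after 36 cycles reach 7.87 and the other groups 11.2 and 11.7, and all lie near 5 cores per 100 peaks beyond 500 bp.

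The bases beside the core were not used by the rule. Repeats have fixed surroundings that would dominate them, so the members without any repeat base in the window are given first. In these 951 members, 37.9% of 1238 cores were followed by thymine, against 24.8% of 448 cores in repeat-free flanks, a difference of 13.1 percentage points (8.13 to 17.8, Newcombe). In that place the difference was -6.54 points for adenine and -5.82 for guanine, with intervals that exclude 0. At the next position adenine was 9.05 points (4.18 to 13.6) and thymine 6.08 points (1.14 to 10.7) more frequent, and for cytosine the difference was -10.9 points. Before the core, thymine was 7.55 points (3.18 to 11.6) more frequent, and for guanine the difference was -7.43 points. Further out the intervals of most bases included 0, but at position -6 from the core the difference was 7.87 points for cytosine and -7.63 for guanine. These were as large as the differences right before the core. Intervals also excluded 0 for adenine at position -3 (-4.54), cytosine at position -2 (4.61) and guanine at position 5 after the core (-5.47). Differences of this size were thus not limited to the bases beside the core. Over all 3820 cores of the members, repeats included, the excess of thymine after the core was 2.75 points (0.733 to 4.78), from 34.2% at peaks and 31.5% in flanks. This interval included 0 for a central 400 bp (1.10, -0.519 to 2.73), for peaks 1 to 50 kb from a start (2.17, -0.133 to 4.47) and for TGTGGT alone (1.91, -0.225 to 4.05).

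**Figure D2:**
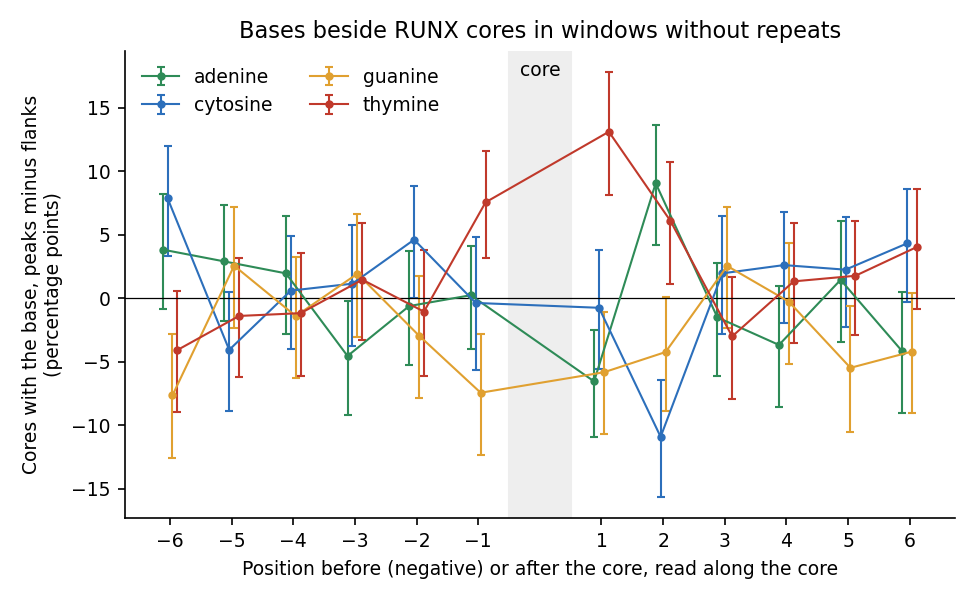
Difference in the share of cores with each base between peaks and flanks, in percentage points (y axis), by position before or after the core (x axis), in windows without repeats (1238 cores at peaks, 448 in flanks). Points are differences and bars their 95% Newcombe intervals; thymine right after the core stands highest, at 13.1 points, and cytosine at the second position after it lowest, at -10.9 points.

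The share of cores followed by thymine was read in each group of lists as well. In repeat-free windows it was 40.1% (36.1 to 44.3) for members in both lists, 37.0% (32.9 to 41.3) for those after 30 cycles only and 33.7% (27.2 to 40.9) for those after 36 cycles only. The intervals of the 3 groups overlap, and that of the 36-cycle group also overlaps that of the flanks. Over all windows, repeats included, members of both lists had a share of 39.6% (37.1 to 42.1), whereas it was 30.4% (28.3 to 32.5) for the 30-cycle group and 32.8% (29.0 to 36.8) for the 36-cycle group, so that there the first interval lay above the others.

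The members were then counted in each list. Of the 2715 members, 1075 or 39.6% (37.8 to 41.4) were found in both lists, where the share over all 14472 distal peaks was 37.5%. A further 1181 members (43.5%) were found after 30 cycles only and 459 (16.9%) after 36 cycles only. The share in both lists was thus near that of distal peaks as a whole. Against the 6786 distal peaks with none of the 3 motifs, of which 34.1% were in both lists, it was 5.50 points higher (3.35 to 7.66). Against peaks with AP-1 (40.8%) and with the E-box but not AP-1 (41.2%) it was lower by less than the counting error, with differences of -1.21 (-3.81 to 1.39) and -1.64 points (-4.39 to 1.11).

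Width moved with this share. Members in both lists had a median width of 621 bp, those after 30 cycles only 320 bp and those after 36 cycles only 258 bp; over all members the range was 195 to 3013 bp with a median of 385 bp. A combined peak found in both lists is joined from intervals of each and is at least as wide as either. Among members of 195 to 309 bp 4.25% were in both lists, among those of 310 to 497 bp 31.4%, and among wider ones 82.5%. The difference from peaks with none of the 3 motifs was 1.17 points (-0.195 to 2.82) among narrow peaks, 4.95 (1.45 to 8.54) in the middle class and 6.91 (3.77 to 9.87) among wide ones. In the middle class the difference from peaks with the E-box was -5.88 points (-10.4 to -1.31), and among wide peaks the members were 4.11 points above those with AP-1 (0.512 to 7.69).

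**Figure D3:**
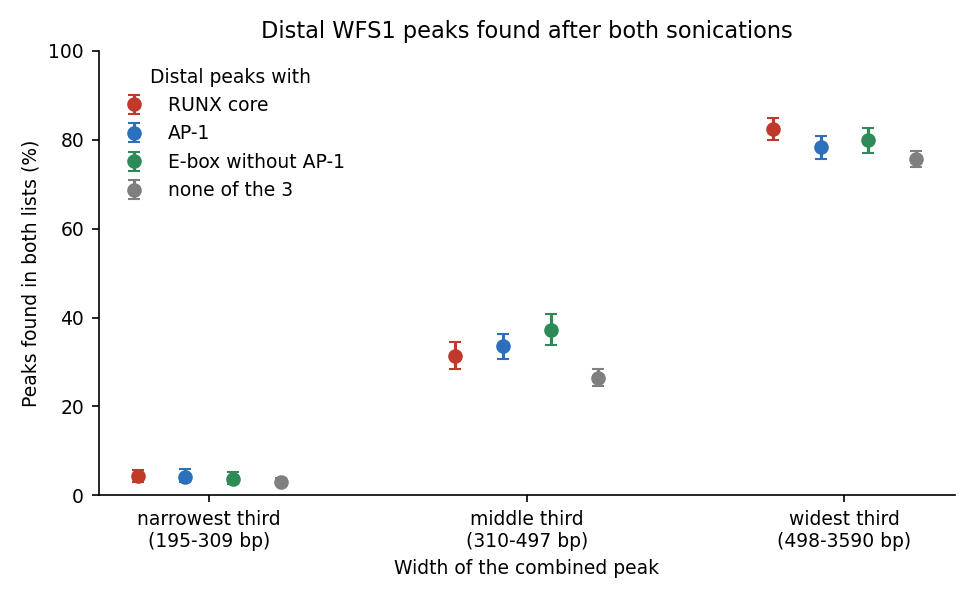
Share of distal peaks found in both lists, in percent (y axis), by class of peak width (x axis) for peaks with the RUNX core, AP-1, the E-box without AP-1 or none of the 3; bars are 95% Wilson intervals over peaks. The share rises from 4.25% in the narrowest to 82.5% in the widest members, and grey points (none of the 3) lie lowest in each class.

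Members differed among themselves in this respect. Those centred 1 to 5 kb from a start were found in both lists in 29.4% of cases (25.2 to 34.0, n = 405), whereas the share lay between 39.7% and 43.4% at all greater distances. Members whose only core was TGCGGT were in both lists in 44.8% (39.2 to 50.6, n = 288) and those whose only core was TGTGGT in 38.0% (35.8 to 40.2, n = 1801). Repeat-free members were in both lists in 42.9% of cases (39.8 to 46.1) and members with over 100 of 200 bases in repeats in 27.1% (23.0 to 31.6). Median width was 339 bp at 1 to 5 kb and 387 to 406 bp beyond, 404 bp for TGCGGT and 382 bp for TGTGGT. It was 411 bp for repeat-free members and 329 bp for those with over 100 repeat bases. None of these shares was compared at equal width. By the distance of an only core from the centre the share was 36.3% (32.3 to 40.4) at 0 to 25 bp, 41.1% (37.2 to 45.2) at 25 to 50 bp, 40.5% (36.3 to 44.9) at 50 to 75 bp and 37.5% (33.3 to 42.0) beyond, with overlapping intervals.

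Most members held 1 core. There were 2089 members (76.9%) with 1, 456 (16.8%) with 2, 113 with 3 or 4 and 57 with 5 or more. In the 160 repeat-free members with 2 cores these pointed the same way in 81 (50.6%, 43.0 to 58.3) and were a median of 52.0 bp apart. Of the members with 5 or more cores 47 of 57 had over 100 of 200 bases in repeats, against 12.7% of those with 1 core, and 22.8% (13.8 to 35.2) were in both lists. The extremes were a peak 3.05 kb upstream of Clptm1l with 30 cores, one 81.4 kb downstream of the B230104I21Rik start with 15, one in Daglb with 12, and 4 with 11 each, in Hs6st1 and Pdcd4 and upstream of Abcg8 and Prokr2. In these windows 155 or more of 200 bases were repeat, except that near Prokr2, in which none was masked. The members in Pdcd4 and near Prokr2 are narrower than the tied ones and were added after their values were seen.

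Some surroundings of the core recurred word for word, which was looked for after the values above were known. The commonest 12 bases, gtgTGTGGTgtg, alternates guanine and thymine around the core and stood in 78 members (2.87%), against 0.918% of the flanks with a core. The word ccaTGTGGTtgc, which the consensus of the B2 short interspersed element of mouse contains, went the other way. It stood in 37 members (1.36%) and in 233 of the 4032 flanks with a core (5.78%), always in repeat-masked sequence at the peaks. Cores lay in repeat-masked bases in 29.2% of cases at members and 32.4% in flanks, a difference of -3.25 points (-5.23 to -1.26).

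The second commonest word, caaTGTGGTaaa, stood in 38 members and 2 of the flanks, and 27 of these 38 members were in both lists. In 36 of the 38 a reading frame of the window encoded the spacing of cysteines and histidines of a classical C2H2 zinc finger, a fold that is repeated many times in the large family of KRAB zinc-finger proteins. Searched over all windows in all 6 frames, this pattern was present in 51 members (1.88%, 1.43 to 2.46), in 67 of the 6786 peaks with none of the 3 motifs (0.987%) and in 15 of the 23759 flanks (0.0631%). Over distal peaks without AP-1 and E-box it was 19.7 times (11.5 to 33.6) as frequent as in flanks, whereas 1 of 2752 peaks with AP-1 and 1 of 2219 with the E-box held it. Every core was on the coding strand of the finger in 49 of the 51 members.

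Of these 51 members 36 were centred in an annotated exon, 31 (60.8%) were in both lists and the median width was 558 bp. Chromosome 5 held 11 of them, chromosome 13 held 9 and chromosome 8 held 7. Members of this kind lay in exons of Zfp958 (1612 bp wide, 15.6 kb from the nearest start), Zfp930 (1462 bp), Zfp950 (1156 bp), Zfp37 (916 bp) and Zfp938 (829 bp), all in both lists; these genes were chosen after their values were seen. Genes of this family can be closely similar in sequence. Reads of low mapping quality had been removed, so the signal in closely similar copies may be incomplete. How surely the remaining reads are assigned to any one of these genes was not tested. Without windows that hold this pattern, an alternative added after seeing the data, the ratio of the core to flanks was 1.67 (1.60 to 1.75).

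Other motifs were read in the members' windows against the members' own flanks and against the 6786 distal peaks with none of the 3 motifs. The TEAD site CATTCC, bound by the partners of YAP and TAZ, was in 453 members or 16.7%, in 9.90% of their flanks (ratio 1.69, 1.49 to 1.90) and in 15.0% of the other peaks. Words 1 letter away from the AP-1 site (TGACTAA, then TGATTCA, then TTACTCA, then TGACTCC and also TGACACA) were in 24.8% of members and 12.7% of flanks (ratio 1.95, 1.76 to 2.15), and 3.07 points (1.20 to 4.99) more frequent than in the peaks with none. Words of C/EBP proteins (TTGCGCAA, TTGCACAA, TTGCATCA and TTGCAACA) were in 3.46% of members and 1.37% of flanks (ratio 2.53, 1.84 to 3.48). Peaks with none held them in 3.18%, so that the difference of 0.279 points (-0.488 to 1.13) was within counting error. The SMAD words GTCTAGAC and CAGACA were in 20.4% of members and 18.2% of flanks (ratio 1.12, 1.01 to 1.23). They were 2.64 points (0.901 to 4.43) more frequent in members than in peaks with none. The E-box CAGGTG, a site of repressors such as ZEB proteins, was less frequent in members (10.1%) than in flanks (13.7%, ratio 0.734, 0.642 to 0.840), and so was the CCAAT box of NF-Y (ratio 0.823, 0.753 to 0.900). The words of MEIS (TGACAG), SOX (ACAAAG), ETS (CGGAAG) and forkhead factors (TGTTTAC and TAAACA) had ratios whose intervals included 1. Intervals excluded 1 for MEF2 (3.01, 1.11 to 8.12, in 11 members), SP1 (1.61, 1.29 to 2.01) and the E-box CAGATG (1.20, 1.08 to 1.34). They also did for NFI (1.16, 1.01 to 1.33) and GATA (0.866, 0.755 to 0.993). The SP1 word was in 5.38% of members and 6.47% of peaks with none. All words were searched on both strands and may share letters with each other or with the core, and the intervals are not adjusted for the 18 motifs read.

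The core was somewhat more frequent at peaks with the motifs that the rule left out. Peaks with neither motif held it in 28.6% (27.7 to 29.5). It was in 31.0% (29.3 to 32.7) of those with AP-1 and 32.8% (30.8 to 34.7) of those with the E-box but not AP-1. The interval of the E-box peaks lay above that of peaks with neither, and that of the AP-1 peaks overlapped it. Counting peaks with both motifs too, it was in 32.1% of those with CAGCTG. Over all 14472 distal peaks, which include the peaks with these motifs, the share was 29.7%. In all 1580 distal peaks held the core together with AP-1 or the E-box and were not members.

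Along the genome, members lay a median of 23.7 kb from the nearest start, with 26.9% within 10 kb and 24.4% beyond 50 kb. They were upstream of that start in 44.2% of cases, between genes in 39.0% (37.2 to 40.9) and in an exon in 7.40%. Peaks with none of the 3 motifs were between genes in 41.2% and in an exon in 8.74%, and the difference of -1.34 points in exons had an interval of -2.49 to -0.104. Against peaks with AP-1, in an exon in 5.45%, the difference had the other sign, at 1.95 points (0.653 to 3.26). Against peaks with the E-box but not AP-1 its interval included 0 (-2.89 to 0.182). Members numbered 0.741 to 1.89 per Mb on the 19 autosomes and made up 15.7% to 21.5% of the distal peaks there. Another member lay within 10 kb of 16.4% of them, and any other distal peak within 10 kb of 53.1%. Over all 14472 distal peaks the latter share was 54.9%, so that the members were near it. At the limits of the rule, the peak nearest to the inner limit was 1.01 kb from the start of Fam20a, and the nearest one left out was 0.996 kb from Atf1; at the outer limit a peak 99.9 kb from Cops8 was kept and one 100037 bp from Mef2c was left out. Peaks with the core but neither AP-1 nor E-box that failed the distance rule numbered 462 under 1 kb and 856 over 100 kb.

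The nearest genes were many. The 2715 members had 2124 different nearest protein-coding genes, 1674 of them with 1 member, 348 with 2 and 102 with 3 or more. Zfp608, which encodes a zinc-finger protein, was nearest to 6 members, all in both lists, all inside the gene and 394 to 1094 bp wide. Ralgps1, a guanine nucleotide exchange factor for Ral, also had 6, of which 3 were in both lists, and Klf6, a Krüppel-like transcription factor, had 6 of which 1 was. Tgif1, a homeodomain repressor of TGF-beta signalling, and Ccn1, a matricellular protein, had 5 each with 3 in both lists. Scgb1a1 (5 members) and Tubd1 (4 members) were named as nearest start although some of their members lay inside Ahnak and Vmp1. Mtap had 5, of which 3 lay in the long noncoding RNA gene Wincr1, and Il34, a cytokine, had 4. Nearness gives a gene's name to a peak and not a target.

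The 10 widest members were all in both lists and measured 1907 to 3013 bp. They lay nearest to Pde8a (3013 bp), Wwp2 (2958 bp), Pdgfc, a platelet-derived growth factor (2512 bp), Artn, a neurotrophic ligand (2498 bp), Sh3bp2, a signalling adaptor (2496 bp), Mroh9 (2467 bp), Ptchd3 (2321 bp), Rai14 (2028 bp), Efcab1 (1916 bp) and Tnfrsf12a, the TWEAK receptor (1907 bp). That of Ptchd3 held the zinc-finger pattern and lay in Gm12586. In the Pde8a member 191 of 200 bases of the window were repeat.

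Members near genes of the RUNX family were few. Over all distal peaks members made up 18.8%, and counts this small do not resolve a difference between the genes. Runx3 had 4 members among 11 distal peaks within 100 kb of its start. They lay 77.9 kb upstream (275 bp wide, 30 cycles only), 75.3 kb upstream (417 bp, both lists), 24.8 kb upstream (1121 bp, both lists) and 50.9 kb downstream (204 bp, 36 cycles only). Runx1 had 1 among 7, the repeat-rich peak printed above (957 bp, both lists), and Runx2 had 0 among 6. Cbfb, the partner of all 3, had no distal peak within 100 kb at all. Among the other genes of this list, Cebpb had 2 members among 14 distal peaks and Smad5 2 among 3.

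Of the muscle genes central to the study, Myod1 had 0 members among 2 distal peaks within 100 kb, Myf5 0 among 5 and Pax7 no distal peak. With members at 18.8% of all distal peaks, 0 among so few is not a result about these genes. The study reports CAGCTG in the Myod1 core enhancer, which overlaps a WFS1 peak. Peaks with CAGCTG in the central 200 bp are left out by the rule. Plxna2, a semaphorin receptor, had 2 among 5, at 40.5 kb downstream (283 bp) and 42.4 kb downstream (322 bp), both after 30 cycles only. The second of these held a TGTGGT and a TGCGGT core on opposite strands.

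For the gene lists, the share of genes with a member within 100 kb was set beside that over all 20807 autosomal protein-coding genes, which was 29.1%. Matrix and adhesion genes had a member in 43 of 75 cases or 57.3% (46.1 to 67.9), TGF-beta and BMP pathway genes in 29 of 60 or 48.3%, actin cytoskeleton genes in 36 of 78 or 46.2%, and skeletal genes known as RUNX targets in 8 of 18 or 44.4%. RUNX family genes and partners had one in 9 of 23 (39.1%), muscle genes in 32 of 82 (39.0%) and neuronal genes in 13 of 77 (16.9%). The median number of members per gene was 1 for matrix and adhesion genes and 0 for every other list and for all genes. The lists also differed in distal peaks of other kinds, which 90.7% of matrix and adhesion genes, 60.5% of all genes and 48.1% of neuronal genes had within 100 kb.

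Members as a share of all distal peaks near the listed genes put the counts on a common base. This share was 18.8% over all genes. It was 20.2% (16.3 to 24.7) for matrix and adhesion genes, 20.7% (12.3 to 32.8) for skeletal RUNX targets, 19.5% for TGF-beta and BMP genes, 17.6% for actin genes, 17.3% for muscle genes and 15.8% (9.99 to 24.2) for neuronal genes. For RUNX family genes and partners it was 11.8% (7.14 to 18.8), 14 members among 119 distal peaks. The intervals of all 7 lists include the share over all genes, which for the RUNX list coincides with the upper limit.

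**Figure D4:**
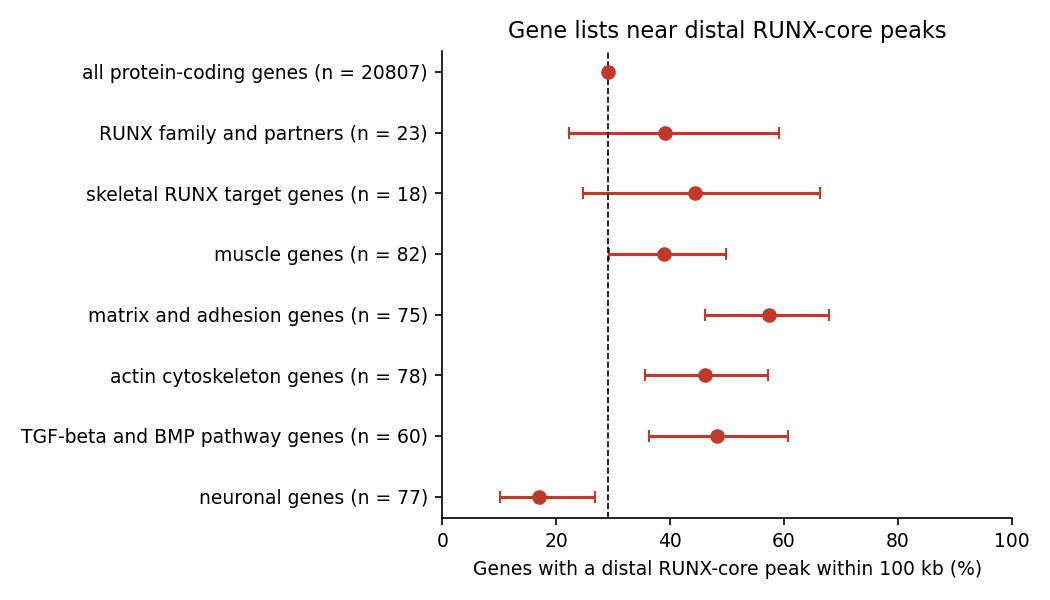
Share of genes with a distal RUNX-core peak within 100 kb of the start, in percent (x axis), for 7 lists and all autosomal protein-coding genes (y axis, with the number of genes); bars are 95% Wilson intervals over genes and the dashed line marks the 29.1% of all genes. Matrix and adhesion genes stand highest at 57.3% and neuronal genes lowest at 16.9%.

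Among the listed genes with the most members, Lgals3 had 5 among 9 distal peaks. They lay 40.1 kb (290 bp, 30 cycles only) and 15.5 kb upstream (629 bp, both lists), and in the gene at 6.70 kb (1209 bp, both lists), 7.81 kb (354 bp, both lists) and 8.82 kb downstream (331 bp, 30 cycles only). The last 3 of these thus neighboured each other inside the gene and outside its exons. Of the other skeletal genes 7 had 1 member each, and those of Col10a1, a collagen of growth plate cartilage, and Sp7, an osteoblast transcription factor, lay nearest and were not in both lists.

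Col4a1 and Col4a2, the basement membrane collagen chains that share a divergent promoter, had the same 5 members among 16 distal peaks, all in both lists and 467 to 1438 bp wide. Seen from Col4a2 they lay 47.2 kb upstream and 2.55, 69.6, 74.6 and 99.7 kb downstream. Timp2, an inhibitor of metalloproteinases, also had 5, among 13 distal peaks and with the nearest at 10.9 kb. Ccn1 had 5 among 12, at 2.01 kb and 35.2 kb upstream (both lists) and at 2.12 kb (36 cycles only), 31.2 kb (30 cycles only) and 31.7 kb downstream (both lists).

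Of TGF-beta genes, Ltbp3, a latent TGF-beta binding protein, had 8 members among 41 distal peaks, all 51.4 to 93.3 kb downstream of its start, 4 of them in both lists. Of the 8, 4 lay in exons of the noncoding RNA genes Malat1 and Neat1. Tgif1 had 6 among 12, from 71.6 kb upstream to 99.5 kb downstream, and Ski, a SMAD corepressor, 4 among 14. Among actin genes, the formin Fmnl3 had 5 among 17, the coronin Coro1c 4 among 11 and Mrtfa, a coactivator of SRF, 4 among 12, with the nearest 25.2, 1.90 and 2.21 kb from their starts. Lasp1, an actin-binding adaptor, also had 4, among 9 and with the nearest at 2.63 kb.

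Muscle genes with the most members were Xirp1, an actin-binding protein of intercalated discs (3 among 5 distal peaks, nearest 3.61 kb), Myom1, an M-band protein (3 among 8), Tnni2, fast skeletal troponin I (3 among 6), and Tnni1, slow skeletal troponin I (3 among 13, nearest 50.4 kb). Of the 9 members near the first 3 genes, 2 were in both lists, one 10.2 kb downstream of the Xirp1 start and one 56.9 kb downstream of that of Myom1. The neuronal genes Homer1, Rims2 and Rab3a had 2 members each, among 2, 2 and 5 distal peaks.

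**Figure D5:**
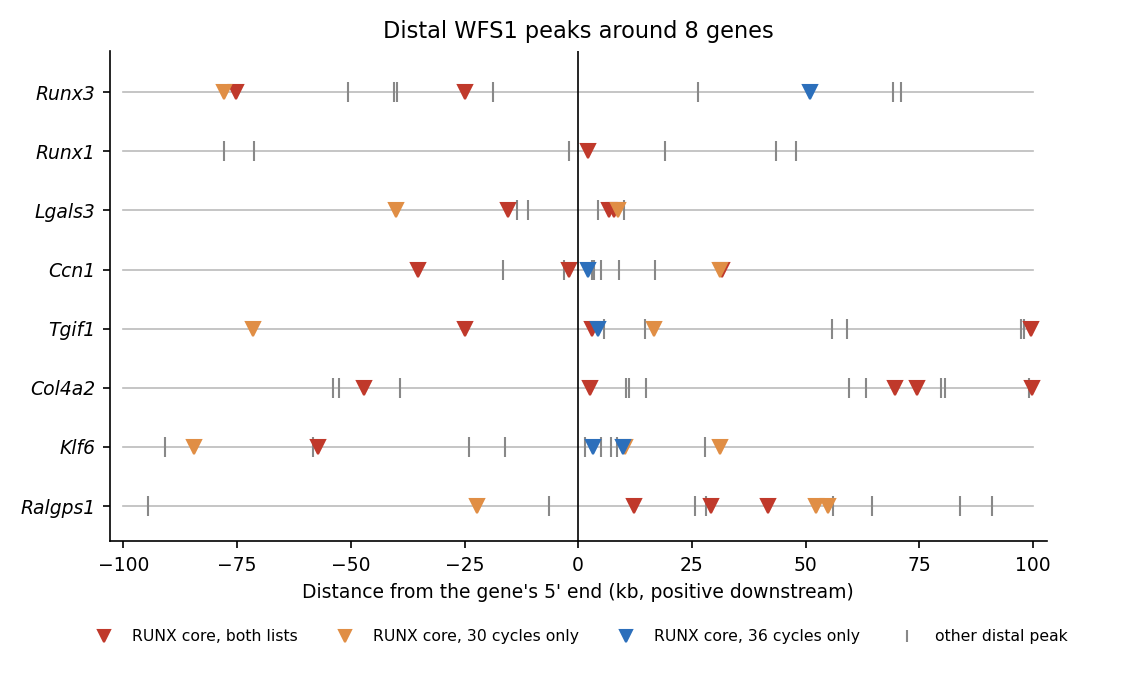
Distal WFS1 peaks around 8 genes (rows) by distance from the gene's 5′ end in kb (x axis, positive downstream); triangles are peaks with the RUNX core, coloured by the lists they were found in, and grey ticks other distal peaks. The 5 members of Col4a2 are all in both lists, the 4 of Runx3 are spread from 77.9 kb upstream to 50.9 kb downstream, and Runx1 has 1.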

How the data were processed

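WFS1 ChIP-seq peaks of wildtype C2C12 myoblasts were taken from the deposited lists after 30 and 36 sonication cycles, in which every peak is a position alone, without a value. Per the labels and the study's methods, the authors aligned the reads with NextGenMap (GRCm38), filtered them on mapping quality (samtools) and ran MACS2 on each library separately. The control used in calling is not given in the sources used here. The other 6 of the 8 libraries were not analysed here. Read totals are unknown, so a peak missing from one list may lie below the threshold of calling, and no value is normalized for depth.

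The lists were combined as bedtools merge 2.31.1 does, in Python 3.11.15, and the function was checked against it. Sequence was read from GRCm38.p6, in which repeats are masked, and genes from GENCODE mouse release 21 (Ensembl 96), with 1 start per gene. Motifs were searched on both strands. Flanks were regions of 200 bp that overlapped no peak, centred 2 kb from the centre of any distal peak. For the other motifs only the flanks of the members were used. Shares have Wilson, differences Newcombe and ratios logarithmic 95% intervals (scipy 1.17.1); no p-value was computed. Functions were tested on simulated data.

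Members, motifs and gene lists were chosen with earlier results of these data known, so no list is independent evidence. Named are the 10 genes nearest to most members, the 10 widest members, the 5 with most cores (ties by width), the 3 genes of each list with most members within 100 kb (ties by the nearest member, with other tied genes added after their values were seen), the members at the distance limits, and Runx1, Runx2, Runx3, Cbfb, Myod1, Myf5, Plxna2 and Pax7. The zinc-finger pattern and recurrent words were added after seeing the data. Sequences on chromosome 18 and in exons were not printed. A gene that the rule for named genes takes in is not reported here. Alternatives tried were each list alone, other joining, windows, distances, start sites, core, repeats, widths, backgrounds and gene distances.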

Additional observations from a re-analysis of the deposited data

How the results depend on the processing

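Of the values under other settings, 57 stayed within their interval (or, for the number of members, within 1.5 times) and 23 moved. The ratio of the core and the excess of thymine kept their direction under each setting. Members found after 30 cycles only, which were not a setting, had no excess of thymine over all windows. The number of members was 1576 from the 36-cycle list alone, 951 without repeat bases and 1357 among peaks wider than the median. The share in both lists was 42.9% with peaks up to 500 bp apart joined, 36.2% with a central 400 bp, 42.9% without repeat bases and 69.0% among wider peaks, where a wide peak is more often made of both lists by construction. It has no value for a single list. The ratio of the core share to flanks was 1.76 for the 30-cycle list alone, 1.91 for a central 100 bp, 1.46 for a central 400 bp and 1.77 without repeat bases. The share of cores within 50 bp of the centre is 100% for a central 100 bp and fell to 29.7% for a central 400 bp, both set by the window. The excess of thymine after the core, whose interval included 0 under 3 settings given above, was 5.59 points for the 36-cycle list alone, 13.1 without repeat bases, 7.21 for wider peaks and 5.60 against tiles of the same GC. The share of members between genes was 34.4% without repeat bases. The share of matrix and adhesion genes with a member was 42.7% for the 36-cycle list alone, 44.0% for a central 100 bp, 28.0% without repeat bases, 44.0% for wider peaks and 45.3% within 50 kb. Over all genes the share under these 5 settings was 17.9%, 23.0%, 11.5%, 16.8% and 16.2%, below the lower limit of the list each time. Where the construction does not show it, the cause was not tested. Leaving out windows with the zinc-finger pattern, added after seeing the data, moved none of these.

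No paired analysis was possible because both lists come from 1 immunoprecipitation, with a single library per condition. Unknown depth limits every count of peaks: absence from a list is not absence of signal.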
